A study of Mus musculus with 12 samples.

Results

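Lin28a, Lin28b, Trim71, Drosha, Dgcr8, Dicer1, Ago1 and Ago2 form the RNA-binding and enzyme core of the let-7 pathway and of microRNA processing. These 8 genes were chosen by name, and each was taken as the assembled locus whose transcripts matched that gene, so that they were 8 of 80012 counted loci. Each name led to 1 locus, and all 8 loci passed the filter on low values that 17922 loci passed. Poly(A) RNA had been sequenced from 12 libraries of the mouse EomesEGFP reporter embryonic stem cell line, labelled C57BL/6, in which EGFP stands under the control of Eomes, a T-box factor of the mesendoderm. Undifferentiated cells (ESC, day 0, n = 4) had been grown on mouse embryonic fibroblast feeders. Embryoid bodies made in hanging drops had been dissociated on day 3 and sorted by EGFP into positive (Eo+, n = 4) and negative (Eo-, n = 4) cells. All 3 groups carried the reporter, libraries were numbered 1, 2, 5 and 6 in each group, and the study describes 4 differentiation sets of a single reporter line. No separate animals or donors are named, so that the p-values measure the spread between these cultures.

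In the canonical pathway, Drosha and its RNA-binding partner Dgcr8 cut a hairpin out of a long primary transcript in the nucleus, Dicer1 cuts the exported hairpin, and an Argonaute protein such as Ago1 or Ago2 holds the mature microRNA on its target mRNAs. Lin28a and Lin28b bind let-7 precursors and keep them from being processed, and let-7 in turn silences the Lin28 and Trim71 mRNAs. Trim71 is an RNA-binding ubiquitin ligase that represses mRNAs in early embryonic cells. Lin28a and Trim71 are known as genes of pluripotent and early embryonic cells, and mature let-7 is scarce there. Only poly(A) RNA was measured, so that the values below are mRNA and primary transcript levels and not those of mature microRNAs.

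The sequences that tie these genes together are shown first, taken from RefSeq (GRCm38.p6) for microRNAs and from GENCODE release 21 for mouse (GRCm38) for mRNAs. All 9 let-7 family microRNAs in the table, miR-98 included, carried the same seed, bases 2 to 8, given here in capitals. The 5 shown are those whose primary transcripts are described below, beside miR-125a, which lies next to let-7e.
let-7a-5p: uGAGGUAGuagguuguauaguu
let-7d-5p: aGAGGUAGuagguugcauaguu
let-7e-5p: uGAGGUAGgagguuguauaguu
let-7f-5p: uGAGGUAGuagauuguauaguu
let-7i-5p: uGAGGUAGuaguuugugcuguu
miR-125a-5p: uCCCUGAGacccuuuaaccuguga
Lin28 proteins recognise GGAG in the terminal loop of let-7 hairpins, the stretch between both mature arms. GGAG was found in the loop of 8 of the 11 let-7 family hairpins with both arms in the table. The loops of let-7a-1, let-7g and let-7i hold it (capitals), and that of let-7b does not. The loop of let-7a-1 is whole, and of the longer loops of let-7g and let-7i (34 bases each) and let-7b (32 bases) a stretch of 30 bases is shown.
let-7a-1 loop: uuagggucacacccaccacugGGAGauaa
let-7g loop, 30 bases: ggucuaugauaccacccgguacaGGAGaua
let-7i loop, 30 bases: ggguugugacauugcccgcuguGGAGauaa
let-7b loop, 30 bases: agggcagugauguugccccuccgaagauaa

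The 3′ untranslated regions (3′ UTRs) of the members were searched on the mRNA strand for the match to the let-7 seed, CTACCTC, which with a following A is called an 8mer site. Of the 8 members, Lin28a, Lin28b, Trim71 and Ago2 held such a match, and Drosha, Dgcr8, Dicer1 and Ago1 held none. The 3′ UTR of Lin28a (2775 bases) held 2, that of Lin28b (4445 bases) 4, that of Trim71 (5512 bases) 4 and that of Ago2 (11064 bases) 3. Long 3′ UTRs hold a match more often. Among all 3′ UTRs within 25% of the same length, the share with at least 1 match was 14.4% for the length of Lin28a, 23.8% for Lin28b, 28.5% for Trim71 and 49.5% for Ago2. For the members without a match it was 0.943% at the length of Drosha (168 bases), 10.2% for Dgcr8, 19.5% for Dicer1 and 24.1% for Ago1. The 8mer sites of these genes are shown with the match in capitals and with their positions in GRCm38, all on the minus strand.
Lin28a, chr4:134005189-134005211: gcacagcctgttgaaCTACCTCA
Lin28a, chr4:134004551-134004573: gagatcgccacaaacCTACCTCA
Lin28b, chr10:45381022-45381044: acccgggcgggaagtCTACCTCA
Trim71, chr9:114512472-114512494: aacattgcctaagtcCTACCTCA
Trim71, chr9:114512376-114512398: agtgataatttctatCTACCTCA
Trim71, chr9:114509047-114509069: tttagtatggattttCTACCTCA
Trim71, chr9:114509021-114509043: ttggcaaaaagttgtCTACCTCA
Ago2, chr15:73097982-73098004: ttttacaatgtggatCTACCTCA
The match to the miR-125 seed, CTCAGGG, stood once each in the 3′ UTRs of Lin28a, Lin28b, Trim71 and Dicer1 and 2 times in that of Ago2. Among 3′ UTRs of like length the share with such a match was 24.3%, 31.3%, 37% and 28.6% for these 4 and 43.7% for Ago2. In Lin28a, Lin28b and Trim71 it was an 8mer. A seed match is a description of the letters and was not tested as a site of regulation.
Lin28a, chr4:134005301-134005323: aggtacatgagcaatCTCAGGGA
Lin28b, chr10:45378798-45378820: ggacaaagaactttgCTCAGGGA
Trim71, chr9:114512559-114512581: caaagaagaaatcgtCTCAGGGA

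Levels were compared between genes as FPKM, which here is CPM (library-scaled counts, with TMM-scaled library sizes) divided by the kilobases of exon in a locus. Lin28a stood far above the other 7 members in every group, with 140 ± 16.6 FPKM in ESC, 171 ± 14.4 in Eo- and 149 ± 18.1 in Eo+ (mean ± SD, n = 4 each). Drosha was next, with 35.5 ± 1.68, 37.5 ± 2.33 and 33.4 ± 2.42 FPKM, and Trim71 followed with 22.6 ± 1.74, 19.3 ± 0.779 and 16.5 ± 0.915 FPKM. These 3 genes kept that order without overlap between libraries in ESC, Eo- and Eo+. The other 5 members lay between 6.70 and 11.3 FPKM in ESC. There, Dicer1 overlapped with Dgcr8, Dgcr8 with Ago1, and Ago2 with Lin28b, which was last at 6.70 ± 0.506 FPKM. In Eo- cells Dgcr8, Lin28b, Ago1, Dicer1 and Ago2 followed each other from 11.5 to 9.26 FPKM, each overlapping with the next. In Eo+ cells Lin28b was again last, at 9.39 ± 0.406 FPKM, beside Ago2 at 9.50 ± 0.275 FPKM.

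Library depth ranged from 648413022 to 837308168 counts over all loci, and a member had at least 32058 counts in any library, so that counting error was small beside the spread between cultures. The summed CPM of 5 pluripotency markers was 2415 to 3260 in ESC, 1124 to 1486 in Eo- and 435 to 760 in Eo+ libraries. Summed CPM of 6 mesendoderm markers was 92.1 to 288, 249 to 510 and 1716 to 2969. Eomes itself, which the sort used, was at 36.5 to 57.2 CPM in ESC, 116 to 168 CPM in Eo- and 446 to 641 CPM in Eo+ libraries. The Eo- fraction was thus not free of Eomes mRNA. The 10 feeder fibroblast markers summed to 101 to 249 CPM in ESC, 33.7 to 49.4 CPM in Eo- and 28.2 to 58.0 CPM in Eo+, with 8, 4 and 6 of them at a mean of at least 1 CPM, and none was without counts in any group. The summed feeder markers were thus highest in ESC, with Col1a1 and Col1a2 the largest there (means of 63.8 and 46.2 CPM). Single markers did not all follow the sum. Of 9 tested, 7 were called lower in Eo+ than in ESC. For Eo- the count was 6 lower and 1 higher, the latter Thy1 (mean of 21.3 CPM beside 14.1 CPM in ESC). Fbn1 was called in no comparison, at means of 11.8, 8.46 and 14.3 CPM in ESC, Eo- and Eo+. The part of feeder RNA in the differences from ESC was not tested. In these bulk libraries fewer cells that express a gene and less RNA per cell cannot be told apart.

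Set against all tested loci, the 8 members changed little. Those loci were 14216 protein-coding, 993 annotated lncRNA and 2713 non-annotated lncRNA loci, and the comparison was not matched for class or level. In Eo+ vs ESC the median size of their log2 fold changes was 0.23 beside 0.68 over all tested loci, in Eo- vs ESC 0.21 beside 0.51, and in Eo+ vs Eo- 0.15 beside 0.36. No member changed by 2-fold in any comparison, as against 38.5%, 29.3% and 23.5% of the tested loci. The only member change above the median of all loci in its comparison was that of Lin28b in Eo- vs ESC. The test at an adjusted p of at most 0.05 was passed in Eo+ vs ESC by 4 of 8 members (3 higher, 1 lower), where 71.9% of all tested loci passed (35.8% higher, 36.1% lower). In Eo- vs ESC 5 of 8, or 62.5%, passed (4 higher, 1 lower), where 62.2% did (30.9% and 31.3%). In Eo+ vs Eo- 2 of 8 passed (both lower), where 47.7% did (23% and 24.6%). Libraries were separated by group for 4, 4 and 1 of the 8 members in these comparisons, beside 64.5%, 55.8% and 45.9% of all tested loci. Both comparisons with ESC share the ESC libraries.

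**Figure D1:**
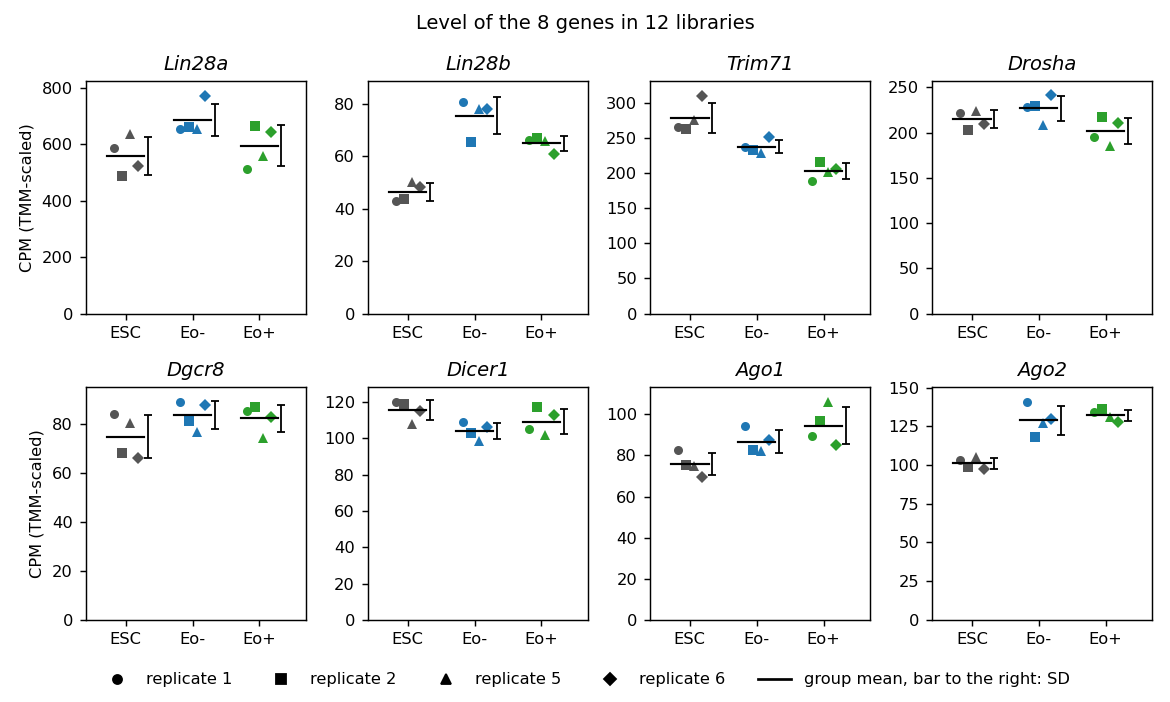
CPM (TMM-scaled, vertical axis from 0) of each of the 8 genes in the 12 libraries, by group; points are libraries with a symbol per replicate number, lines are group means and bars SD (n = 4). Lin28b lies between 43.1 and 50.2 CPM in ESC and between 60.8 and 80.7 CPM in the sorted groups, and Trim71 falls from ESC over Eo- to Eo+ without overlap between groups.

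Lin28a (XLOC_051626, ENSMUSG00000050966) occupied chr4:134003330-134018841 on the minus strand of mm10, the span of the annotated gene. Its levels were 588, 488, 636 and 523 CPM in ESC libraries 1, 2, 5 and 6, which is the order used for each group from here on. They were 654, 661, 655 and 771 CPM in Eo- and 512, 665, 558 and 645 CPM in Eo+. All 4 Eo- libraries were above all ESC libraries, whereas the Eo+ libraries overlapped with both. Lin28a mRNA was higher in Eo- than in ESC, by 0.30 ± 0.10 on the log2 scale (SE, limma, adjusted p = 0.0181), but this call was lost without ESC library 2 (0.23, limma adjusted p = 0.0634) and without Eo- library 6 (0.24, limma adjusted p = 0.0611). For Eo+ vs ESC the value was 0.09 with a 95% interval of -0.13 to 0.30. In Eo+ vs Eo- it was -0.21 ± 0.10 (limma adjusted p = 0.0973). The numbers of the sorted libraries pair both fractions of a culture, and with the replicate number as a block in the Eo- and Eo+ libraries alone the value was -0.20 and passed (limma adjusted p = 0.0333).

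Lin28b (XLOC_007634, ENSMUSG00000063804, chr10:45375698-45486442, minus strand), the paralogue of Lin28a, was lowest in ESC. It was at 43.1, 43.6, 50.2 and 48.3 CPM in ESC, at 80.7, 65.3, 78.2 and 78.0 CPM in Eo- and at 66.2, 66.8, 66.0 and 60.8 CPM in Eo+ libraries. Every sorted library was above every ESC library. Lin28b rose by 0.71 ± 0.08 on the log2 scale in Eo- vs ESC (limma adjusted p = 5.59e-06), which is 1.63-fold, and by 0.49 ± 0.08 in Eo+ vs ESC (limma adjusted p = 9.18e-05), which is 1.41-fold. These were the largest rises among the 8 members in both comparisons. Lin28b was lower in Eo+ than in Eo- with a log2 difference of -0.21 ± 0.08 (limma adjusted p = 0.0369), but the groups overlapped, because Eo- library 2 lay below 3 of the Eo+ libraries. Leaving out any 1 of the 8 sorted libraries other than Eo- library 2 ended that call, with limma adjusted p-values from 0.0604 without Eo+ library 2 to 0.12 without Eo+ library 6.

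Trim71 (XLOC_073667, ENSMUSG00000079259, chr9:114504175-114564387, minus strand) moved the other way. Its levels were 265, 263, 276 and 309 CPM in ESC, 237, 233, 229 and 251 CPM in Eo- and 189, 216, 201 and 205 CPM in Eo+ libraries. No library of one group overlapped with another group, and Trim71 was the only member separated in this way in Eo+ vs Eo-. Trim71 fell by 0.22 ± 0.06 on the log2 scale in Eo- vs ESC (limma adjusted p = 0.00837), by 0.45 ± 0.06 in Eo+ vs ESC (limma adjusted p = 2.54e-05) and by 0.23 ± 0.06 in Eo+ vs Eo- (limma adjusted p = 0.0103). The fall in Eo- vs ESC did not pass when libraries were scaled by their totals (-0.15, limma adjusted p = 0.0614). The call in Eo+ vs Eo- held under each alternative that was run other than the 2-fold minimum, with adjusted p-values of at most 0.0474. The locus ran 2.96 kb past the annotated 3′ end of the gene.

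The balance of both Lin28 genes was compared within libraries, since a ratio of FPKM does not depend on library scaling. The Lin28b to Lin28a ratio was 0.0424, 0.0517, 0.0456 and 0.0534 in ESC, 0.0712, 0.0571, 0.0691 and 0.0585 in Eo- and 0.0748, 0.0580, 0.0684 and 0.0545 in Eo+ libraries. Lin28a mRNA thus exceeded Lin28b mRNA in every library, and each sorted library had a higher ratio than each ESC library. The difference from ESC was 0.41 ± 0.11 (SE of a log2 ratio) for Eo- and 0.40 ± 0.13 for Eo+. Each gave p = 0.0286 in a two-sided exact permutation test, the smallest that 4 against 4 libraries allow, and 0.0514 after Benjamini-Hochberg adjustment over the 9 ratio comparisons made, so that neither passed. Eo+ and Eo- differed by -0.01 ± 0.13 (exact permutation p = 0.943).

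Drosha and Dgcr8, the nuclear Microprocessor, moved little between groups, and neither passed the main test in any comparison. Drosha (XLOC_024313, ENSMUSG00000022191, chr15:12824792-12935290, plus strand) was at 222, 203, 224 and 210 CPM in ESC, 228, 229, 208 and 242 CPM in Eo- and 195, 217, 185 and 211 CPM in Eo+ libraries. The 3 groups overlapped. The log2 difference of Drosha came to -0.09 in Eo+ vs ESC (95% interval -0.24 to 0.05), 0.08 in Eo- vs ESC (-0.07 to 0.22) and, between the sorted groups, -0.17 in Eo+ vs Eo- (-0.31 to -0.03). The last of these had a limma adjusted p of 0.0509 and passed with the replicate block in the sorted libraries alone (-0.16, limma adjusted p = 0.0214). With only loci of at least 1 CPM in 4 libraries Drosha also passed in Eo+ vs ESC (-0.17, limma adjusted p = 0.0366). Dgcr8 (XLOC_028484, ENSMUSG00000022718, chr16:18253948-18289249, minus strand) was at 84.2, 68.3, 80.7 and 66.4 CPM in ESC, 89.1, 81.4, 76.9 and 87.8 CPM in Eo- and 85.4, 87.0, 74.6 and 83.2 CPM in Eo+ libraries. It passed the main test in no comparison, with log2 fold changes of 0.14 (95% interval -0.05 to 0.33), 0.17 (-0.02 to 0.35) and -0.02 (-0.21 to 0.16) in the same order. Dgcr8 did pass with no expression filter, at 0.22 in both comparisons with ESC (limma adjusted p = 0.0473 for Eo+ and 0.0458 for Eo-), and in Eo- vs ESC also with scaling by library totals (0.24, limma adjusted p = 0.0347) and without ESC library 1 (0.22, limma adjusted p = 0.0421). The Dgcr8 mRNA is itself cut by the Microprocessor, at hairpins in its 5′ part. The hairpins of miR-1306 (chr16:18284239-18284317) and miR-3618 (chr16:18284550-18284637) lay in exons of the counted locus. The Drosha to Dgcr8 ratio of FPKM was 3.18, 3.58, 3.35 and 3.81 in ESC, 3.08, 3.39, 3.26 and 3.32 in Eo- and 2.75, 3.0, 2.98 and 3.05 in Eo+ libraries. Each Eo+ library was below each library of the other groups. The log2 ratio differed by -0.24 ± 0.07 from ESC and by -0.15 ± 0.04 from Eo-, each with an exact permutation p of 0.0286 that became 0.0514 after adjustment.

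Dicer1 (XLOC_016772, ENSMUSG00000041415, minus strand), which cuts hairpins in the cytoplasm, was at 120, 119, 108 and 115 CPM in ESC, 109, 103, 98.4 and 106 CPM in Eo- and 105, 117, 102 and 113 CPM in Eo+ libraries. The groups overlapped in each comparison. Dicer1 came nearest to a call in Eo- vs ESC, at -0.15 on the log2 scale (95% interval -0.29 to -0.02, limma adjusted p = 0.0504), and passed there with edgeR (quasi-likelihood adjusted p = 0.0486), DESeq2 (-0.20, Wald adjusted p = 0.00857) and several other alternatives. In Eo+ vs ESC the value was -0.08 (-0.21 to 0.06), and it passed only with loci of at least 1 CPM in 4 libraries (-0.15, limma adjusted p = 0.037). Assembly had drawn the locus out to chr12:104648608-104752015, 39.13 kb beyond the annotated 3′ end of Dicer1, so that its counts and its length of exon may hold more than the Dicer1 mRNA.

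Both Argonaute genes were higher after differentiation. Ago2 (XLOC_026203, ENSMUSG00000036698, chr15:73095730-73184947, minus strand), the Argonaute that can slice its targets, was at 103, 98.5, 105 and 97.6 CPM in ESC, 141, 118, 127 and 130 CPM in Eo- and 134, 136, 131 and 128 CPM in Eo+ libraries. All sorted libraries were above all ESC libraries. Ago2 rose by 0.39 ± 0.06 on the log2 scale in Eo+ vs ESC (limma adjusted p = 6.26e-05) and by 0.35 ± 0.06 in Eo- vs ESC (limma adjusted p = 0.00024), and differed by 0.04 between Eo+ and Eo- (95% interval -0.09 to 0.17). Ago1 (XLOC_051442, ENSMUSG00000041530, chr4:126434789-126468583, minus strand) was at 82.8, 75.4, 74.7 and 69.7 CPM in ESC, 94.2, 82.8, 82.0 and 87.5 CPM in Eo- and 89.6, 96.8, 106 and 85.3 CPM in Eo+ libraries. It rose by 0.32 ± 0.08 in Eo+ vs ESC without overlap (limma adjusted p = 0.00278). In Eo- vs ESC the groups overlapped, and the rise of 0.19 ± 0.08 (limma adjusted p = 0.0484) did not hold under many alternatives, with adjusted p-values of up to 0.244. Leaving out ESC library 2, 5 or 6, any Eo- library other than 5, or Eo+ library 1 or 2 was enough to end it, at 0.0516 to 0.13. The Ago1 to Ago2 ratio of FPKM was 1.24 ± 0.0752 in ESC, 1.11 ± 0.0391 in Eo- and 1.18 ± 0.112 in Eo+ (SD, n = 4 each). It was lower in all Eo- than in all ESC libraries (-0.16 ± 0.05 as a log2 ratio, exact permutation p = 0.0286, adjusted 0.0514), and the remaining comparisons overlapped.

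**Figure D2:**
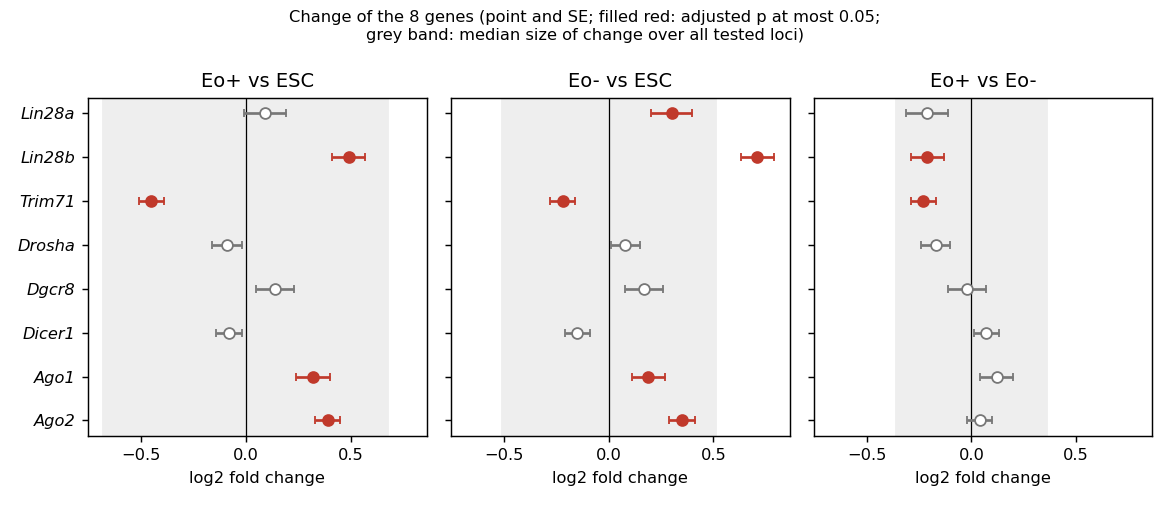
Log2 fold change (horizontal axis) of the 8 genes in the 3 comparisons from the limma fit, with SE bars; filled red points passed at an adjusted p of at most 0.05, open points did not, and the grey band spans the median size of change over all 17922 tested loci (0.68, 0.51 and 0.36). All points but that of Lin28b in Eo- vs ESC lie inside the band.

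**Figure D3:**
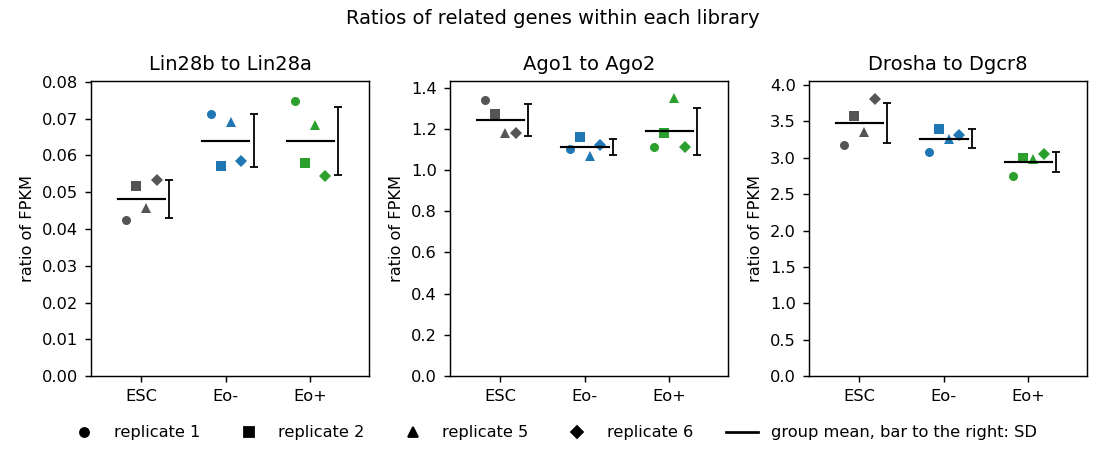
Ratio of FPKM (vertical axis from 0) of Lin28b to Lin28a, Ago1 to Ago2 and Drosha to Dgcr8 in each library, with group means and SD (n = 4). The Lin28b to Lin28a ratio is 0.0424 to 0.0534 in ESC and 0.0545 to 0.0748 in the sorted groups.

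Genes whose pattern over the 12 libraries was most like that of 3 members were sought among 13361 genes with a mean of at least 1 CPM in a group, by the root mean square difference of centred log2(CPM + 0.5) values. This is a description with no test. Exo1 (0.096) and Peo1 (0.107) were among the 3 nearest to Lin28a. The nearest were, for Lin28b, a locus that joins AW146154, Gm20449 and Vmn2r57, whose counts cannot be split (0.073), Gng2 (0.078) and Pot1b (0.084), and, for Trim71, Zkscan5 (0.058), Nvl (0.062) and Morc2a (0.064). Nvl followed the stepwise fall of Trim71 with group means of 147, 130 and 109 CPM in ESC, Eo- and Eo+, and Gng2 followed Lin28b with 41.4, 70.1 and 58.5 CPM.

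The loci that hold hairpins of let-7, miR-125 and the microRNAs of pluripotent cells were counted in the same libraries. The locus of let-7a-1, let-7f-1 and let-7d (XLOC_019584, chr13:48531895-48546483, minus strand), with all 3 hairpins in exons, was at 8.94, 10.6, 7.22 and 10.7 CPM in ESC, 4.71, 5.12, 6.48 and 4.76 CPM in Eo- and 5.67, 5.39, 7.09 and 5.32 CPM in Eo+ libraries. This primary let-7 transcript was lower in both sorted groups without overlap, by 0.82 ± 0.16 on the log2 scale in Eo- vs ESC and by 0.66 ± 0.16 in Eo+ vs ESC (limma adjusted p = 0.000453 and 0.00172). In these same groups Lin28b was higher. Another assembled locus (XLOC_019578) held the same hairpins in introns, at 0.239 to 0.456 CPM in ESC, 0.197 to 0.266 CPM in Eo- and 0.171 to 0.271 CPM in Eo+ libraries. Its groups overlapped, and it was called in no comparison. The let-7i locus (XLOC_008725, chr10:122979259-122986106, minus strand) had means of 1.08, 1.2 and 1.31 CPM in ESC, Eo- and Eo+, and passed in no comparison of a fit that took in every class of locus.

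The let-7e and miR-125a hairpins lay in exons of the Spaca6 locus (XLOC_029722), whose counts cannot be split between both genes. That locus was at 8.40 to 10.3 CPM in ESC, 5.55 to 7.07 CPM in Eo- and 8.14 to 11.1 CPM in Eo+ libraries. It was lower in Eo- than in ESC (-0.64 ± 0.13) and higher in Eo+ than in Eo- (0.67 ± 0.13) on the log2 scale (limma adjusted p = 0.000695 and 0.000742). The locus with let-7a-2 and miR-125b-1 in introns (XLOC_070562) was at 4.36, 1.33, 3.02 and 1.08 CPM in ESC and at or below 0.336 CPM in every sorted library. Its order among the ESC libraries was that of the summed feeder markers, which were 249, 119, 198 and 101 CPM, and the part of feeder RNA in this difference was not tested. The hairpins of let-7g in Wdr82 and of let-7f-2 and miR-98 in Huwe1 were intronic, so that the exon counts of those genes do not measure them apart.

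The miR-290 to miR-295 locus and the cluster of miR-302 and miR-367 hold microRNAs that share a seed (AAGUGCU in miR-291a-3p, miR-294-3p, miR-295-3p, miR-302b-3p and miR-302d-3p), and their loci moved in opposite directions. Mature miR-294 and miR-302d are shown with bases 2 to 8 in capitals.
miR-294-3p: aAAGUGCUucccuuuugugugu
miR-302d-3p: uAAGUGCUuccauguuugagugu
The miR-290 to miR-295 locus (XLOC_060807, chr7:3217842-3222348, plus strand) was at 63.7, 53.1, 41.0 and 50.2 CPM in ESC, 24.6, 17.8, 18.9 and 17.9 CPM in Eo- and 9.46, 4.29, 6.54 and 6.27 CPM in Eo+ libraries. The 3 groups did not overlap. It belongs to no class of the main fit, and in a fit of all locus classes, added after the data had been seen, it fell by 1.46 ± 0.18 in Eo- vs ESC, by 3.01 ± 0.22 in Eo+ vs ESC and by 1.56 ± 0.23 in Eo+ vs Eo- (log2, limma adjusted p = 9.95e-06, 2.21e-08 and 0.000108). The miR-302 and miR-367 hairpins lay in an intron of a locus joined to Zgrf1 (XLOC_044786, chr3:127536777-127621261, plus strand), which began 16.71 kb before the annotated gene. That locus was at 28.5 to 35.0 CPM in ESC, 77.7 to 91.5 CPM in Eo- and 78.0 to 115 CPM in Eo+ libraries, and rose by 1.44 ± 0.12 and 1.61 ± 0.12 on the log2 scale over ESC (limma adjusted p = 2.99e-07 and 4.01e-08). Its counts cannot be split between Zgrf1 and the microRNA primary transcript.

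**Figure D4:**
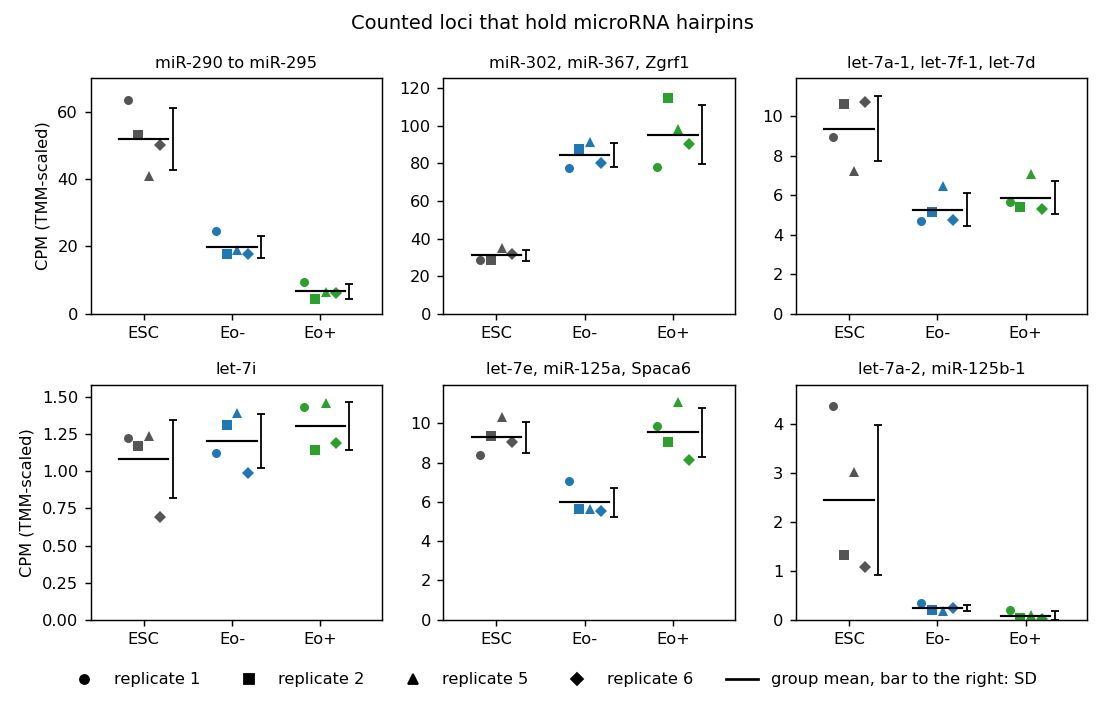
CPM (TMM-scaled, vertical axes from 0) of 6 loci that hold microRNA hairpins, in the 12 libraries by group, with group means and SD (n = 4). The miR-290 to miR-295 locus falls from 41.0 to 63.7 CPM in ESC to 4.29 to 9.46 CPM in Eo+, and the locus of miR-302, miR-367 and Zgrf1 rises.

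The other genes of the pathway were taken from 9 lists of 61 names drawn up from general knowledge. A locus was found for 60, and 59 were tested. In Eo+ vs ESC 30 of the 59 were higher, 17 lower and 12 not called, and in Eo- vs ESC 18 were higher, 18 lower and 23 not called. Between the sorted groups 20 were higher in Eo+ than in Eo-, 10 lower and 29 not called. Of the names tested, 79.7%, 61.0% and 50.8% were thus called, beside 71.9%, 62.2% and 47.7% of all tested loci, and the median log2 fold change of the lists was 0.22, 0.06 and 0.10 beside 0.00, 0.02 and -0.01. With at least a 2-fold change also required, 18, 7 and 4 of the 59 were called. Over all tested loci, 38.5%, 29.3% and 23.5% changed by at least 2-fold, called or not. By list, the share called in Eo+ vs ESC, to be read against the 71.9% of all tested loci (35.8% higher, 36.1% lower), was 50% for deadenylation and decapping genes, 60% for the other Argonautes and GW182 proteins and 66.7% for let-7 processing and microRNA turnover, all below it. It was 80% for the nuclear cofactors, 84.6% for the known let-7 targets and 85.7% for microRNA host transcripts. The last list counts Larp7, which is antisense to its hairpins, as described below. All members of the lists of Dicer partners, of precursor tailing and decay and of Trim71-repressed mRNAs were called (100%), but these hold 2, 3 and 6 genes.

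Of the Dicer partners, Prkra (PACT) rose by 1.45 ± 0.07 in Eo+ vs ESC, by 0.98 ± 0.07 in Eo- vs ESC and by 0.47 ± 0.07 in Eo+ vs Eo- on the log2 scale (limma adjusted p = 1.75e-09, 1.83e-07 and 6.58e-05). Its level was 17.1 to 18.4 CPM in ESC, 33.3 to 38.1 CPM in Eo- and 46.9 to 51.6 CPM in Eo+ libraries. Tarbp2 (TRBP), which serves Dicer in the same position, fell by 0.47 ± 0.10 in Eo+ vs ESC and by 0.34 ± 0.10 in Eo- vs ESC (limma adjusted p = 0.000836 and 0.00838). Of 5 nuclear cofactors and export factors, 3 were lower and 1 higher in Eo+ vs ESC. Among them the helicase gene Ddx17 was higher by 0.36 ± 0.11, Ran, the export GTPase, lower at -0.22 ± 0.06 and the helicase gene Ddx5 lower at -0.21 ± 0.06 (limma adjusted p = 0.0109, 0.00652 and 0.00999), the call of Ddx5 being lost with no expression filter (limma adjusted p = 0.0594). Srrt (-0.43) was counted together with neighbouring genes. Xpo5, the exporter of hairpins, also counted with neighbours, had a value of -0.06 and was not called.

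Among the other Argonautes and the GW182 proteins that Argonautes recruit, 3 of 5 were higher in Eo+ vs ESC and none lower. Ago4 rose from 0.739 to 0.759 CPM in ESC to 1.15 to 1.53 CPM in Eo- and 2.51 to 2.87 CPM in Eo+ libraries, a rise of 1.85 ± 0.14 on the log2 scale for Eo+ vs ESC and of 0.99 ± 0.13 for Eo+ vs Eo- (limma adjusted p = 7.89e-08 and 5.43e-05). It stayed far below Ago1 and Ago2, also per length. Tnrc6b (0.24 ± 0.09) and Tnrc6a (0.20 ± 0.07) passed in Eo+ vs ESC (limma adjusted p = 0.0298 and 0.0224), but both calls were lost under DESeq2 size factors, that of Tnrc6b also without ESC library 5 or Eo+ library 5 and that of Tnrc6a also without ESC library 6 or Eo+ library 1, with adjusted p-values of up to 0.119 for each gene. Ago3 (-0.05) and Tnrc6c (-0.09) were not called in that comparison. Of 8 deadenylation and decapping genes, through which Argonautes silence mRNAs, 4 were higher and none lower in Eo+ vs ESC, a smaller share (50%) than over all tested loci (71.9%), with Pan3 at 0.53 ± 0.08, Cnot7 at 0.46 ± 0.07, Cnot6 at 0.42 ± 0.09 and Pan2 at 0.31 ± 0.10 (limma adjusted p = 4.37e-05, 5.55e-05, 0.001 and 0.0105). Of these 8, only Pan3 was called in Eo- vs ESC (12.5%, beside 62.2% of all tested loci).

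The enzymes that act with Lin28 on let-7 precursors were higher in Eo+ vs ESC, 3 of 3. Zcchc11 (TUT4), which adds uridines to let-7 precursors held by Lin28a, was at 24.2 to 30.5 CPM in ESC, 36.2 to 48.8 CPM in Eo- and 50.5 to 73.3 CPM in Eo+ libraries. It rose by 1.08 ± 0.13 in Eo+ vs ESC, by 0.56 ± 0.13 in Eo- vs ESC and by 0.53 ± 0.12 in Eo+ vs Eo- (limma adjusted p = 3.6e-06, 0.00205 and 0.00272). Zcchc6 (TUT7) rose by 0.49 ± 0.08 and Dis3l2, the nuclease that degrades the tailed precursors, by 0.32 ± 0.11 in Eo+ vs ESC (limma adjusted p = 6.08e-05 and 0.0164), the latter without a call when ESC library 5 was left out (limma adjusted p = 0.0513). Of the 3 genes of let-7 processing and microRNA turnover, Zswim8, part of a ubiquitin ligase for Argonautes, rose by 1.27 ± 0.14 in Eo+ vs ESC and by 0.79 ± 0.14 in Eo- vs ESC (limma adjusted p = 2.08e-06 and 0.000305). Hnrnpa1, which binds the let-7a-1 hairpin, was higher in Eo+ vs ESC by 0.22 ± 0.07 (limma adjusted p = 0.0166) but without a call when ESC library 2 or Eo+ library 2 was left out, with adjusted p-values of up to 0.101 over its alternatives. Khsrp (-0.09) was not called.

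Of 13 known let-7 targets 8 were higher, 3 lower and 2 not called in Eo+ vs ESC, and 6 were higher and 5 lower in Eo- vs ESC (84.6%, beside 62.2% of all tested loci, 30.9% higher and 31.3% lower). Hmga2, a chromatin protein gene, was at 49.0, 25.7, 57.3 and 17.2 CPM in ESC, 166, 84.7, 89.3 and 92.6 CPM in Eo- and 559, 568, 359 and 585 CPM in Eo+ libraries. It rose by 3.91 ± 0.32 in Eo+ vs ESC and by 1.62 ± 0.33 in Eo- vs ESC on the log2 scale (limma adjusted p = 1.17e-07 and 0.000819). Its ESC values were highest in libraries 5 and 1, which also had the highest feeder marker sums (198 and 249 CPM). Their full order, 5, 1, 2 and 6, was that of the mesendoderm markers Mixl1 (27.4, 18.6, 8.76 and 3.95 CPM), Lhx1 (9.93, 6.22, 2.85 and 1.97 CPM), Gsc and Mesp1, 4 of the 6 mesendoderm markers. The other two did not follow it, with Eomes at 49, 36.5, 57.2 and 43.1 CPM and T at 196, 92.6, 95.7 and 41.8 CPM in the same library order. The part of feeder RNA or of differentiating cells in the ESC values was not tested. The RNA-binding protein gene Igf2bp3 rose by 1.73 ± 0.10, Arid3b by 1.63 ± 0.14 and the cell cycle factor E2f5 by 1.39 ± 0.07 in Eo+ vs ESC (limma adjusted p = 8.13e-09, 1.83e-07 and 2.04e-09). The 3 that were lower, Mycn (-1.17 ± 0.15), Igf2bp1 (-0.47 ± 0.07) and Cdc25a (-0.33 ± 0.08), are named after their values were seen (limma adjusted p = 9.54e-06, 4.13e-05 and 0.00288). The 3′ UTR of Hmga2 held 4 let-7 seed matches and that of Igf2bp1 also 4, those of Igf2bp3, Arid3b, E2f5 and Cdc25a 1 each, and that of Mycn none. Of 3′ UTRs of like length, 15.9%, 32.9%, 12.6%, 12.5%, 3.91%, 10.7% and 6.14% held a match, in this order of genes.

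The list of mRNAs known to be repressed by Trim71 had 6 members, of which 2 were higher and 4 lower in Eo+ vs ESC. Cdkn1a, the cell cycle inhibitor p21, fell by 1.47 ± 0.18, the immediate early gene Egr1 by 1.41 ± 0.19 and the retinoblastoma family gene Rbl2 by 1.19 ± 0.17, whereas the semaphorin receptor gene Plxnb2 rose by 1.11 ± 0.09 (log2, limma adjusted p = 6.71e-06, 1.14e-05, 3.31e-05 and 1.62e-07). Trim71 itself fell in the same comparison. The median of this list was -1.14 in Eo+ vs ESC beside 0.00 over all tested loci.

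Of the 14 transcripts tested in the list of microRNA hosts, 6 were higher and 6 lower in Eo+ vs ESC. The 6 higher include Larp7 (0.41), whose locus on the minus strand spans the miR-302 and miR-367 hairpins. Those hairpins lie on the plus strand, so that Larp7 is antisense to them and not their host. Mir124a-1hg was at 2.82 to 5.61 CPM in ESC, 0.232 to 0.474 CPM in Eo- and 0.0051 to 0.0225 CPM in Eo+ libraries, a fall of 8.13 ± 0.63 on the log2 scale (limma adjusted p = 7.75e-08). Dnm3os, at 0.456 to 1.77 CPM in ESC, had no count in Eo+ libraries 2 and 6 and at most 0.0366 CPM in any sorted library. Its ESC libraries 1 and 5, which had the highest feeder marker sums, were also highest for Dnm3os, and the part of feeder RNA was not tested. H19, the host of miR-675, rose by 2.48 ± 0.67 and Mest, the host of miR-335, by 1.48 ± 0.28 in Eo+ vs ESC (limma adjusted p = 0.00419 and 0.000279), both with a wide spread, H19 from 50.8 to 484 CPM in Eo+ libraries. Mir99ahg did not pass the filter on low values, and no locus bore the name Mir100hg, the miR-100 hairpin lying in an intron of the let-7a-2 and miR-125b-1 locus described above.

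**Figure D5:**
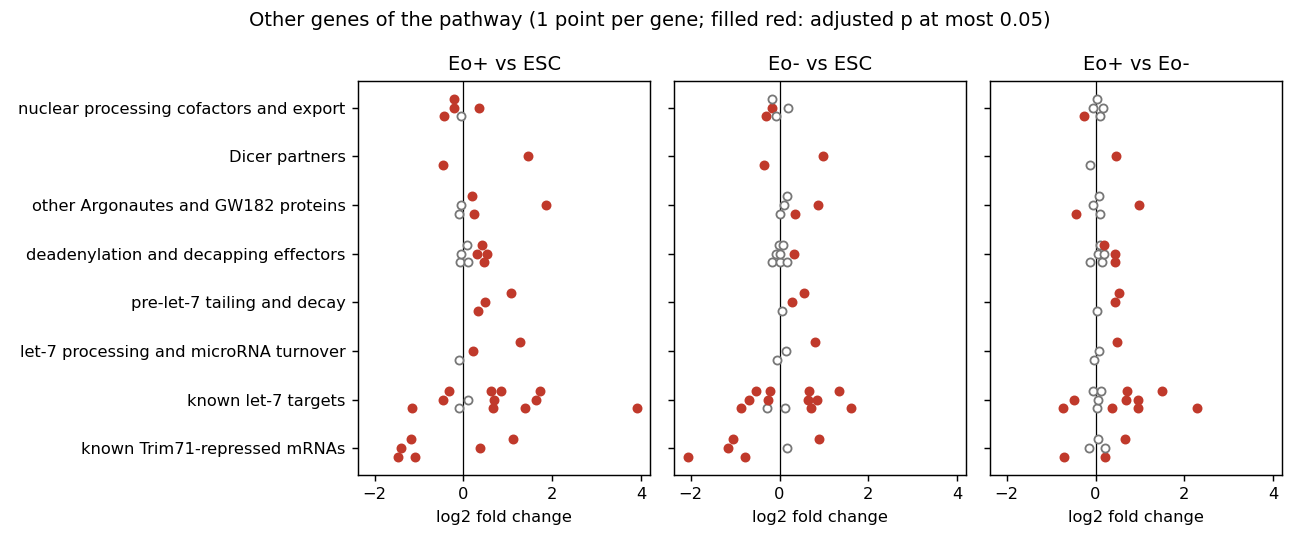
Log2 fold change (horizontal axis) of the other pathway genes, 1 point per gene, by list and comparison from the limma fit; filled red points passed at an adjusted p of at most 0.05 and open points did not. Hmga2 is the point farthest to the right in Eo+ vs ESC, at 3.91, and 4 of the 6 Trim71-repressed mRNAs lie to the left of 0 in both comparisons with ESC, whereas in Eo+ vs Eo- their median is 0.14.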

How the data were processed

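The authors mapped paired, stranded reads to mm10 with STAR and Ensembl genes, assembled and merged transcripts with Cufflinks and Cuffmerge, and deposited raw counts per merged locus from HTSeq in strand-aware union mode. Reads mapped to more than 1 place (22.4% to 26.2%), outside loci (2.65% to 3.6%) or ambiguously (0.015% to 0.0193%) stayed out, so that genes with near-identical copies are undercounted. The authors also deposited a normalized signal resembling CPM, not used here, and exon positions, which lack 357 of the 80012 counted loci. No other sample's columns were present (0).

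Loci were tested when their mean FPKM, from counts and summed exon length, exceeded 0.1 in at least 1 group and they were protein-coding, annotated lncRNA or multi-exon unannotated loci (biotypes from GENCODE release 21). Counts went through voom (limma 3.58.1, R 4.3.3) with TMM scaling (edgeR 4.0.16) in 1 fit of 12 libraries, and two-sided moderated tests were adjusted by Benjamini-Hochberg over 17922 loci, with calls at 0.05. FPKM ratios were tested by exact permutation of libraries. The members, lists and alternatives were chosen with earlier results of these data known. Up to 4 genes per list are named, those with the largest called change in Eo+ vs ESC, beside genes not called and, added after their values were seen, the 3 let-7 targets that were lower, and 1 gene close in pattern to Lin28a is not reported here. Loci with microRNA hairpins were those of at least 200 bases that span a let-7, miR-125, miR-290 or miR-302 hairpin. 3′ UTRs are of the transcript with the longest coding sequence per gene. The pairing of replicate numbers was checked by the correlation of deviations from group means, which was 0.398, 0.176, 0.169 and 0.136 for Eo+ and Eo- libraries 1, 2, 5 and 6, so that numbers pair both fractions, whereas with ESC the correlations ran from -0.0847 to 0.201. A floor of 3 counts was 0.00358 to 0.00463 CPM, for counting error only. The fit was tested on simulated data. Alternatives were other scalings, filters and tests (edgeR, DESeq2 1.42.0), fewer groups, a replicate block, each library left out and a 2-fold minimum, and, after seeing the data, all locus classes and a block in the sorted libraries alone.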

Additional observations from a re-analysis of the deposited data

Results flagged for a closer look

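In each of 33 sets of 4 libraries (values of a member or a ratio in a group), the highest and lowest library was compared with the others by Dixon's criterion, which chance meets in about 1 of 20 sets. The criterion was met in 2 of them. Lin28a in Eo- library 6, at 771 CPM, stood apart from 654 to 661 CPM in the other Eo- libraries, by 0.947 of the range of the group. Lin28b in Eo+ library 6, at 60.8 CPM, stood below 66.0 to 66.8 CPM in the other Eo+ libraries, by 0.876 of the range. Without Eo- library 6 the Lin28a difference in Eo- vs ESC was 0.24 (limma adjusted p = 0.0611) instead of 0.30, and without Eo+ library 6 the Lin28b difference in Eo+ vs Eo- was -0.17 (limma adjusted p = 0.12) instead of -0.21.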

How the results depend on the processing

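With a 2-fold minimum no member was called in any comparison (0). Of the 59 other pathway genes tested, 18, 7 and 4 were called in Eo+ vs ESC, Eo- vs ESC and Eo+ vs Eo-. Changes of at least 2-fold, called or not, were seen in 38.5%, 29.3% and 23.5% of all tested loci. The count of 4 members in Eo+ vs ESC and the counts of pathway genes stayed within 1.5 times of the main counts under all other alternatives. Without single libraries, members called in Eo- vs ESC fell from 5 to as few as 3 (without ESC library 2 or Eo- library 6). In Eo+ vs Eo- 1 member instead of 2 was called with no expression filter, with all locus classes, with only the 2 groups in the fit and without single libraries (lowest 1), Lin28b being lost each time. With the replicate block in the sorted libraries alone 4 were called, and with the replicate block in all 12 libraries 3, 4 and 6 members were called in Eo+ vs Eo-, Eo+ vs ESC and Eo- vs ESC. The shares over all tested loci given above are of the main fit. Counts of members under the alternatives cannot be set against them and are no result about the members. The block gave no ratio a p below 0.125, the smallest that 4 pairs allow, and a block of complete pairs cannot move the ratio differences themselves. Values that changed sign were near 0 and not called. Dgcr8 in Eo+ vs Eo- was 0.04 with all locus classes and ran from -0.06 to 0.04 without single libraries (0.01 and 0.02 without Eo- libraries 6 and 1), Ago2 ran from -0.003 (without Eo- library 2) to 0.09, and the Lin28b to Lin28a ratio in Eo+ vs Eo- ran from -0.09 to 0.07 (0.03, 0.04 and 0.05 without Eo- library 5, Eo+ library 2 and Eo- library 1). Of the called pathway genes, 40 of 47 in Eo+ vs ESC, 31 of 36 in Eo- vs ESC and 24 of 30 in Eo+ vs Eo- kept their call under every alternative, the 2-fold minimum aside. Each member name had 1 locus, so that summing loci could give no other value. Mature microRNAs and proteins were not measured.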
